A study of Mus musculus with 24 samples.

Results

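The 10 genes described here are textbook transcriptional targets of the tumor suppressor p53, chosen by name: *Cdkn1a*, *Mdm2*, *Ccng1*, *Phlda3*, *Trp53inp1*, *Bax*, *Bbc3*, *Sesn2*, *Zmat3* and *Btg2*. All 10 were found among the 24411 genes counted in each of 24 liver RNA-seq libraries. The question was whether the lower *Cdkn1a* level seen after acetaminophen (APAP) overdose in livers lacking *E2f7* and *E2f8* extends to the other targets. *Cdkn1a* prompted this question, so its difference between LKO and control pools is given as a description with no test, and the counts there are over the other 9 genes.

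The libraries come from male mice, aged 2.5 months, that carried floxed *E2f7* and *E2f8* alleles. LKO mice were of a mixed, mainly FVB background with the R26R-mTmG reporter and carried Alb-Cre, which deletes both genes from liver development on in the cells that express albumin and their descendants, and control littermates lacked Cre. HKO mice had received AAV8-TBG-Cre at 2 months of age, which deletes both genes in adult hepatocytes, and their controls had received AAV8-TBG-Null. Mice were fasted for about 16 h, and those of the 0 h groups received no APAP. At 0 h, 3 HKO and 3 AAV8-TBG-Null control mice and 4 LKO and 4 control mice were sequenced singly. After 300 mg/kg APAP, each library was made from the pooled liver RNA of 3 mice. There was 1 control and 1 LKO pool at each of 12, 24, 48, 72 and 96 h and no HKO pool. Differences at a single time point therefore have no replicate check, and p-values over pools measure the spread between these libraries.

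p53 is held at a low level in unstressed cells because MDM2, itself the product of a p53 target, marks it for degradation. After DNA damage or other stress p53 accumulates and switches on genes that halt the cell cycle, promote apoptosis, repair damage and restrain p53 itself. In liver, the overdose of APAP is known to raise *Cdkn1a*, which encodes the cyclin-dependent kinase inhibitor p21. Several of these genes are also induced without p53 by other stress pathways.

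The stretches of promoter shown here are those that most resemble a p53 binding site. The windows span 250 bases before to 50 after each RefSeq transcription start (GRCm38.p6, from the C57BL/6J strain), and 8 of the 10 genes had an entry, with 11 promoters among them. The 10-base p53 half-site consensus, which reads alike on both strands, occurred in 4 of these 11 promoters, those of *Mdm2*, *Ccng1*, *Bax* and the upstream start of *Cdkn1a*. It occurred in 7.42% of 20788 promoters of the genes counted. Exact half-sites in pairs, at most 13 bases apart, occurred in 1 of the 11 promoters (*Cdkn1a*) and in 8 of the 20788 (0.0385%). A 20-base site of 2 adjacent half-sites with at most 1 mismatch, a search chosen after the half-sites had been seen, was found in 2 of the 11 and in 16 of the 20788 (0.077%). Both are printed 5′ to 3′ on the strand of the gene with the 20 bases in capitals. The *Cdkn1a* site lies from −51 to −32 of the upstream start (chr17:29090908-29090967, plus strand, for the bases shown) and the *Ccng1* site from −195 to −176 (chr11:40755442-40755501, minus strand).
Cdkn1a: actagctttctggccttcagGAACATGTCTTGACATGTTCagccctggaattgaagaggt
Ccng1: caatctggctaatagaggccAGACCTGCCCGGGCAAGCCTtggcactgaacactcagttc
No such 20-base match was present in the window of the downstream *Cdkn1a* start at 29093769. These matches describe letters only, and sites outside the windows were not searched.

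Levels are given as CPM, the reads of a gene scaled by TMM to a common library total, with 12665686 to 19499897 reads on genes per library. At this depth 3 counts correspond to 0.154 to 0.237 CPM, a limit that covers counting error only, and all 10 genes passed the filter on low counts in every comparison. Genes were called at an adjusted p-value under 0.05 with at least a 1.5-fold change in edgeR's quasi-likelihood test. The deposited count of *E2f8* covers the whole gene and was higher, not lower, in the knockouts (14.5 to 25.7 CPM in AAV8-TBG-Null control and 30.1 to 81.9 CPM in HKO mice, 11.7 to 18.9 CPM in control and 17.8 to 34.4 CPM in LKO mice at 0 h), so it does not check the genotype and directions follow the labels. In the pools *E2f8* was called as higher in LKO (log2 1.53, adjusted p = 0.0237). Summed hepatocyte markers ranged from 47040 to 126909 CPM over the libraries and no marker of that list was at 0 throughout a group. Because whole liver was sequenced, fewer cells of a type and less RNA per cell cannot be told apart.

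**Figure D1:**
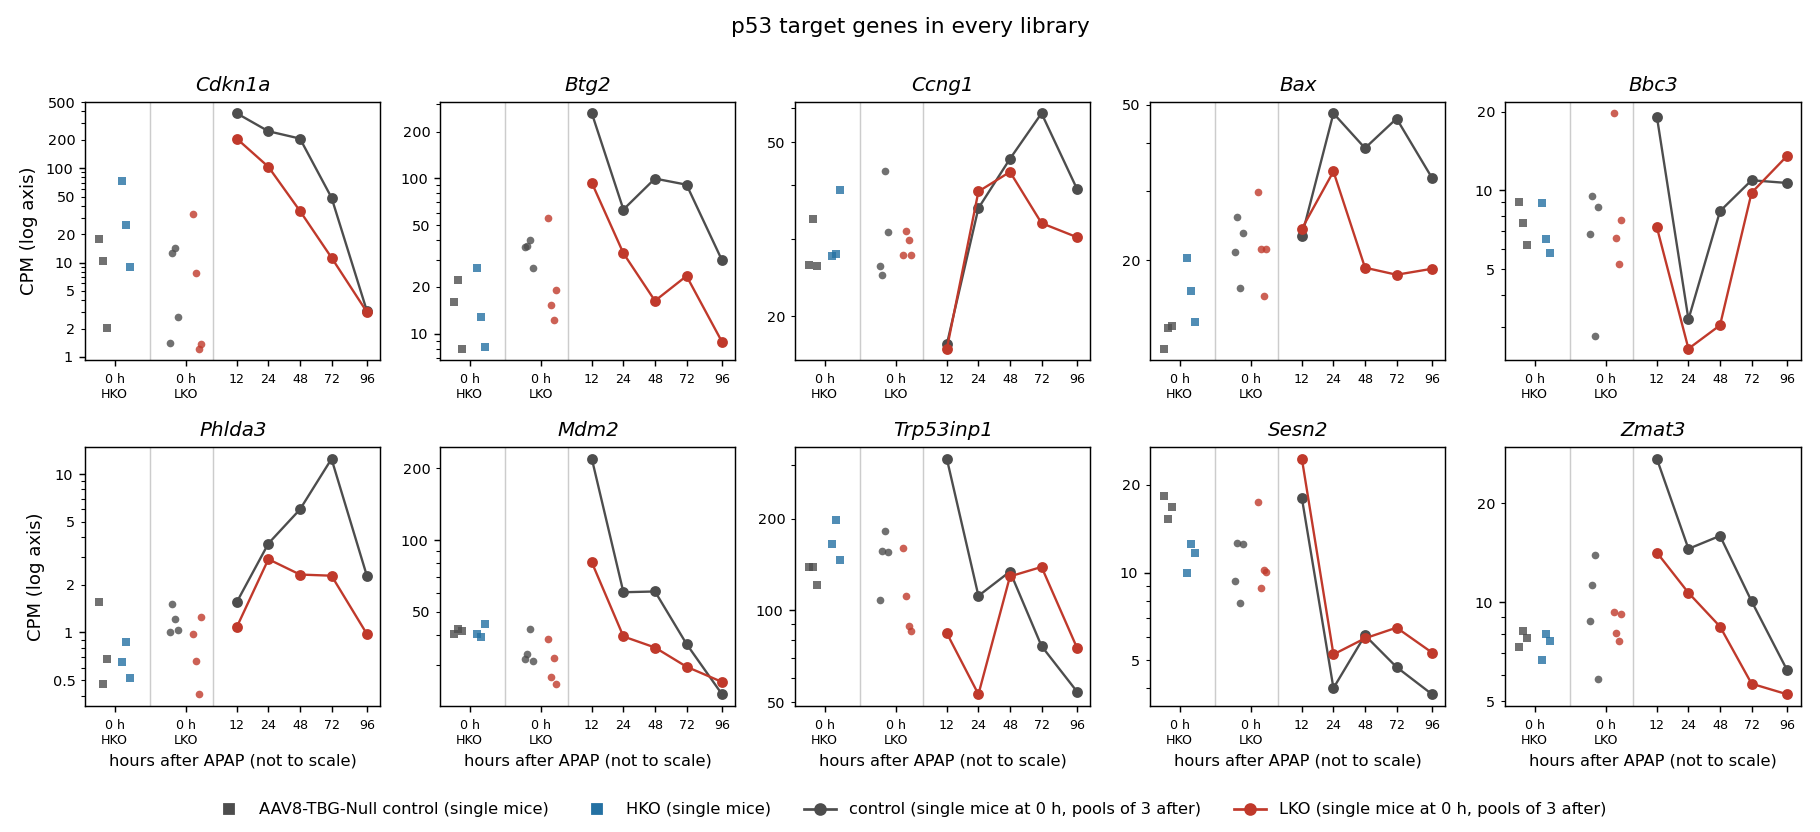
CPM of the 10 p53 target genes in every library, on a log axis in each panel, with single mice of the HKO cohort (squares) and of the LKO cohort (small circles) at 0 h and pools of 3 mice joined by lines from 12 to 96 h. Control pools lie above LKO pools at all 5 time points for *Cdkn1a*, *Btg2*, *Phlda3* and *Zmat3*, although for *Cdkn1a* at 96 h the levels of 3.04 and 2.98 CPM are nearly equal.

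*Cdkn1a* (chr17:29090976-29100727 on GRCm38, plus strand) was the member with the widest range. In control livers it stood at 1.42, 12.6, 14.1 and 2.62 CPM in the 4 mice at 0 h. The control pools had 381, 246, 206, 48.7 and 3.04 CPM from 12 to 96 h. The first 4 of these pools lay above every 0 h mouse, and the pool at 96 h was back within their range. In LKO livers the 0 h mice had 32.8, 7.73, 1.22 and 1.36 CPM, and the pools had 205, 103, 35.2, 11.3 and 2.98 CPM. Pools from 12 to 48 h exceeded the 0 h mice in both genotypes, whereas the LKO pools at 72 and 96 h overlapped them. The log2 difference of LKO from control was −0.89, −1.25, −2.54 and −2.10 at 12, 24, 48 and 72 h. At 96 h it was −0.03, which became 0.19 when libraries were scaled by size only.

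Among the genes that restrain proliferation, *Btg2* was the one with a called difference between genotypes. *Btg2* (chr1:134075170-134079120, minus strand) encodes an antiproliferative protein that recruits the deadenylation machinery to mRNAs. The control pools had 263, 63.0, 99.7, 91.1 and 29.6 CPM from 12 to 96 h. The LKO pools had 93.5, 32.9, 16.2, 23.5 and 8.83 CPM, lower at each time point. Over the 5 time points *Btg2* was 3.36-fold lower in LKO (log2 fold change −1.75, SE 0.22, adjusted p = 0.0237). The call was lost without the 12 h pools (adjusted p = 0.0693) and without the 72 h pools (adjusted p = 0.0515), while the log2 fold changes stayed at −1.81 and −1.68. It was also lost in a fit without the time point as a block (adjusted p = 0.764).

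*Ccng1* (chr11:40748552-40755311, minus strand), which encodes cyclin G1, a partner of protein phosphatase 2A in the control of MDM2, did not share this pattern. The control pools had 17.3, 35.4, 45.9, 58.3 and 39.1 CPM, and the LKO pools had 16.9, 38.6, 42.8, 32.7 and 30.3 CPM. Both genotypes were low at 12 h, and a difference of more than 1.5-fold was seen at 72 h alone. The shared log2 difference was −0.25 (SE 0.16, adjusted p = 0.456), and −0.09 without the 72 h pools.

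Of the genes linked to apoptosis, *Bax* and *Phlda3* had lower values in LKO pools late in the course. *Bax* (chr7:45461697-45466898, minus strand) encodes a pore-forming protein of the mitochondrial outer membrane. In control pools it had 23.1, 47.5, 38.7, 46.1 and 32.5 CPM and in LKO pools 24.1, 33.7, 19.1, 18.4 and 19.0 CPM. The 2 pools were alike at 12 h, and from 24 h on the control pools lay above all 4 of their 0 h mice, whereas only the 24 h pool did so in LKO. The shared log2 difference was −0.72 (SE 0.20, adjusted p = 0.113).

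*Phlda3* (chr1:135766119-135769136, plus strand) encodes a repressor of the survival kinase AKT and had the lowest level per length of the 10 genes at 0 h. Values in control pools were 1.56, 3.64, 5.98, 12.5 and 2.26 CPM. The LKO pools had 1.08, 2.90, 2.32, 2.28 and 0.975 CPM. The largest gap between genotypes was at 72 h, with a log2 difference of −2.39. The shared difference was −1.21 (SE 0.34, adjusted p = 0.122).

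*Bbc3* (chr7:16308393-16318205, plus strand), which encodes the BH3-only protein PUMA, was at least 1.5-fold lower in the LKO pool at 12 and 48 h. Control pools showed 19.1, 3.22, 8.33, 10.9 and 10.7 CPM and LKO pools 7.22, 2.49, 3.06, 9.80 and 13.5 CPM. Both genotypes were lowest at 24 h, and the LKO pool was the higher one at 96 h. The shared log2 difference was −0.60 (SE 0.29, adjusted p = 0.300), and −0.38 without the 12 h pools.

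The genes that act back on p53 differed most at 12 h. *Mdm2* (chr10:117688875-117710758, minus strand), the ubiquitin ligase that degrades p53, had 219, 60.4, 60.9, 36.7 and 22.6 CPM in control pools and 80.6, 39.4, 35.4, 29.4 and 25.4 CPM in LKO pools. The log2 difference was −1.44 at 12 h, −0.61, −0.78 and −0.32 at the next 3 times and 0.17 at 96 h. *Trp53inp1* (chr4:11156431-11174379, plus strand), a stress-induced p53 cofactor, had 313, 112, 134, 76.5 and 54.2 CPM in control pools and 84.2, 53.2, 129, 139 and 75.4 CPM in LKO pools. Its direction differed along the course, lower in LKO at 12 and 24 h (−1.89 and −1.07) and higher at 72 and 96 h (0.86 and 0.47). Shared log2 differences were −0.61 for *Mdm2* (SE 0.21, adjusted p = 0.181) and −0.33 for *Trp53inp1* (SE 0.35, adjusted p = 0.663). Without the 12 h pools they were −0.39 and 0.07.

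*Zmat3* (chr3:32334792-32366014, minus strand), a zinc finger protein that binds RNA and influences splicing, was lower in LKO at each time point. In control pools it had 27.2, 14.5, 15.9, 10.1 and 6.22 CPM and in LKO pools 14.1, 10.7, 8.43, 5.66 and 5.25 CPM. The shared log2 difference was −0.69 (SE 0.18, adjusted p = 0.107).

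*Sesn2* (chr4:132492032-132510501, minus strand) had the opposite direction. It encodes sestrin 2, which restrains mTORC1 under stress and is also known to be induced by ATF4. Values in control pools were 18.0, 4.01, 6.08, 4.73 and 3.82 CPM and in LKO pools 24.6, 5.23, 5.94, 6.47 and 5.31 CPM. It was the only one of the 10 with a positive shared difference, 0.34 (SE 0.19, adjusted p = 0.361), and its LKO pool was the higher one at all time points but 48 h. With the stranded column the 48 h difference was 0.24 in place of −0.03. Summed levels of 6 other ATF4 targets were 286, 55.6, 62.4, 58.3 and 37.9 CPM in control pools and 369, 49.1, 23.8, 31.8 and 30.8 CPM in LKO pools, none of them called. All 6 had a shared log2 difference below 0, with a median of −0.69, where 51.4% of all genes were below 0. Their part in the *Sesn2* values was not tested.

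**Figure D2:**
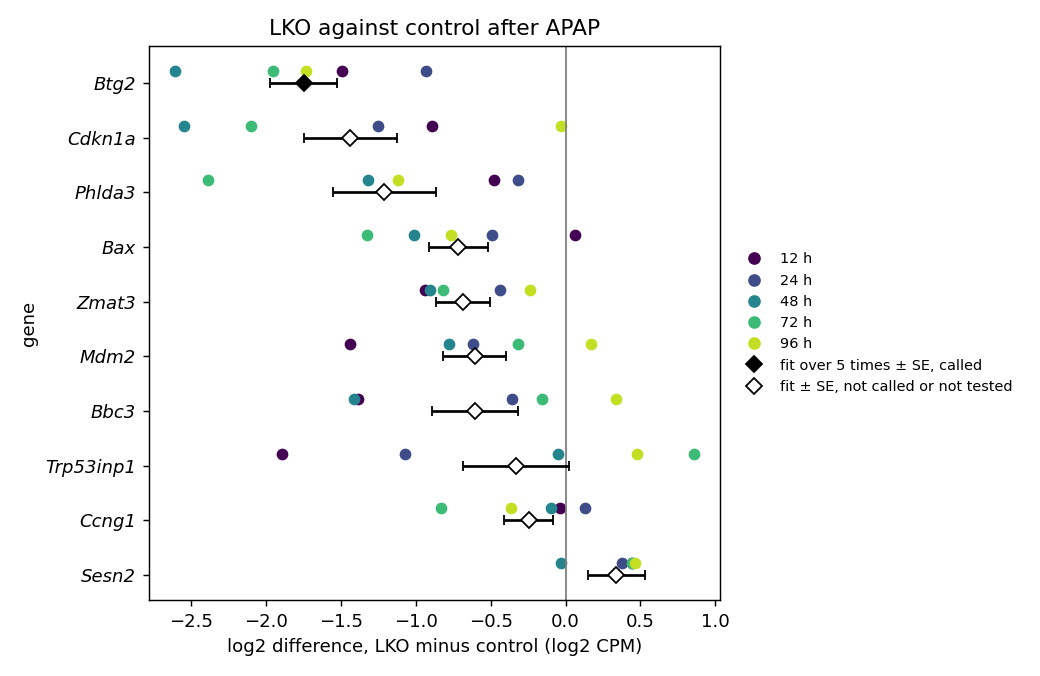
Log2 difference of LKO from control after APAP for each gene, with 1 point per time point and diamonds for the fit over the 5 time points with its standard error. *Btg2* (filled diamond, −1.75) is the called gene, *Cdkn1a* is shown untested at −1.44, and *Sesn2* (0.34) lies to the right of 0.

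Over the 9 tested members, 1 was called, *Btg2*, against 0.579% of the 12782 genes tested (74 genes). Leaving out one time point gave 9 to 177 genes and 0 to 1 members, and a fit without the time block gave 0 genes. Fitted differences were below 0 in 8 of the 9, with a median of −0.61, against 51.4% of all genes and a median of −0.01. Without the 12 h pools 7 of the 9 were below 0, with a median of −0.39. An unadjusted p-value under 0.05 was reached by 5 of the 9 and by 2284 of all genes. DESeq2, run on the same pools, called 606 genes (4.74%) and 4 of the 9 members, namely *Btg2*, *Phlda3* (adjusted p = 0.0250), *Bax* (0.0294) and *Zmat3* (0.0351). Levels below control at all 5 time points were found for *Phlda3*, *Zmat3* and *Btg2*, beside *Cdkn1a*, and for 8.73% of all genes.

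Time point by time point, at least 1.5-fold lower levels in the LKO pool were seen for 5 of the 9 members at 12 h (55.6%), where 22.9% of the 13328 genes kept were as low. At 24 h it was 3 of 9 (33.3%, against 10.6% of all genes), and the 48 h pools gave 6 of 9 (66.7%, against 19%). The 72 h pools gave 5 of 9 (55.6%, against 15.6%), and those of 96 h gave 3 of 9 (33.3%, against 12.4%). *Btg2* belonged to all 5 of these counts. *Trp53inp1* at 72 h was the single member at least 1.5-fold higher in an LKO pool. Median log2 differences of the 9 were −0.94, −0.44, −0.91, −0.82 and −0.24 in time order. Scaling by library size only shifted the median difference over all genes by 0.15, 0.06, −0.13, 0.10 and 0.22 in time order, and 2 of the 9 members were then as low at 24 h and 2 at 96 h. With the stranded column the counts were 5 at 24 h and 2 at 96 h. The sign at 12 h turned for *Ccng1* with either alternative (−0.03 to 0.13) and for *Bax* with the stranded column (0.06 to −0.11).

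**Figure D3:**
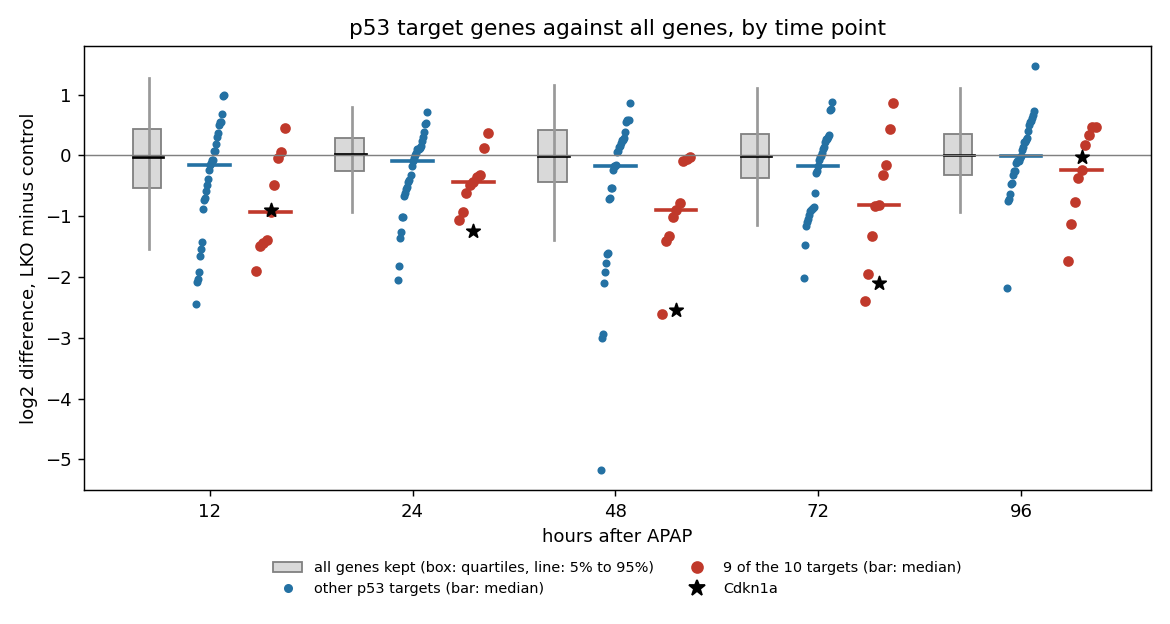
Log2 difference of LKO from control at each time point for the genes kept (gray box, quartiles, with a line from percentile 5 to 95), 29 other p53 targets (blue) and 9 of the 10 genes (red), with *Cdkn1a* as a star and bars at the medians. The red medians lie below 0 at each time point, from −0.94 at 12 h to −0.24 at 96 h, and the blue medians lie between −0.18 and 0.

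Markers of other cell types also differed between the pools of the 2 genotypes. Summed cholangiocyte markers were 175, 56.3, 219, 69.5 and 21.8 CPM in control and 37.0, 50.8, 87.2, 43.9 and 21.6 CPM in LKO pools, and all 5 markers tested had a difference below 0 with a median of −1.01. Summed neutrophil markers were 16.8, 14.0, 32.1, 26.4 and 9.05 CPM in control and 17.4, 30.4, 9.62, 8.42 and 2.49 CPM in LKO pools. Neutrophil sums were thus higher in LKO at 12 and 24 h and lower from 48 h on. Summed stellate markers were 83.5, 74.8, 138, 411 and 131 CPM in control and 76.1, 68.6, 109.8, 252 and 149 CPM in LKO pools. Summed macrophage markers were 143, 125, 204, 580 and 404 CPM in control and 124, 133, 273, 589 and 167 CPM in LKO pools. Stellate sums were lower in LKO from 12 to 72 h and higher at 96 h, and macrophage sums were lower at 12 and 96 h and higher between. Summed hepatocyte markers were lower in LKO at all times but 48 h, with 100898 against 62528 CPM at 12 h, where 3 of the 6 were lower. None of these markers was called in this comparison, and their part in the differences of the p53 targets was not tested. Summed proliferation markers were 112 CPM in control and 104 CPM in LKO at 48 h, and 221 and 204 CPM at 72 h.

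The second comparison asked how the 10 genes changed after APAP within each genotype. No mice without APAP were sequenced at 12 to 96 h, so APAP and the time passed since 0 h cannot be told apart. In control livers none of the 10 genes was called, where 4.04% of the 12603 genes tested were. The spread among the pools includes the time course, so that a transient change can miss the call. Fitted changes were above 0 for 8 of the 10 genes, with a median log2 change of 0.69, against 0.06 over all genes. The highest fitted values were 4.55 for *Cdkn1a* (SE 1.18, adjusted p = 0.0552), 2.14 for *Phlda3* (SE 0.59, adjusted p = 0.0635), 1.66 for *Btg2* (SE 0.51, adjusted p = 0.0793) and 1.21 for *Mdm2* (SE 0.55, adjusted p = 0.189). Without the 12 h pool *Btg2* was at 1.06 and *Mdm2* at 0.41, and without the 72 h pool *Phlda3* was at 1.52. All 5 control pools of *Phlda3* lay above all 4 mice at 0 h, and the other 9 genes overlapped. Among all genes, 10.9% were separated in this way in either direction.

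Levels of cell type markers also differed between these pools and the 0 h mice, in both directions. *Cd68*, one of 6 macrophage markers, had 5.01 to 5.96 CPM in the 0 h mice and 34.5, 36.0, 25.6, 50.5 and 10.8 CPM in the pools, and was called as higher (log2 change 2.52, adjusted p = 0.0319). The macrophage list as a whole summed to 133 to 227 CPM at 0 h and to 143, 125, 204, 580 and 404 CPM in the pools, above the 0 h mice at 72 and 96 h alone. Cholangiocyte sums were 37.8 to 78.6 CPM at 0 h, exceeded at 12 and 48 h (175 and 219 CPM). Endothelial sums were 198 to 246 CPM at 0 h and 242, 160.5, 208, 155 and 189 CPM in the pools, below the 0 h mice at 24, 72 and 96 h. Proliferation sums were 4.72 to 7.51 CPM at 0 h and 2.57, 6.26, 112, 221 and 12.9 CPM in the pools. Neutrophil sums were 2.48 to 12.2 CPM at 0 h, exceeded from 12 to 72 h, and stellate sums 73.1 to 109 CPM, exceeded from 48 h on, with the pool values given above. Hepatocyte sums were 68463 to 108828 CPM at 0 h and 87108 to 126909 CPM in the pools, and of these 6 markers *Tat*, a tyrosine-degrading enzyme, was called as lower (−1.34, adjusted p = 0.0452). Both calls were lost without any one control mouse at 0 h and without the 24 or 48 h pool, and that of *Tat* also without the 72 h pool. Their part in the values of the p53 targets was not tested.

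Calls of members depended on the tool and on single pools. DESeq2 called *Cdkn1a*, *Phlda3*, *Btg2* and *Bax* in control livers (adjusted p from 0.00137 to 0.0255) among 14.4% of all genes. Without the 96 h pool edgeR called these 4 genes among 16% of all genes. Without the 12 h pool, where 11.1% of all genes were called, it called *Cdkn1a*, *Phlda3* and *Bax* as higher and *Sesn2* as lower (log2 change −1.15, adjusted p = 0.0248). A fit with all 18 libraries of this cohort called *Cdkn1a*, *Phlda3* and *Bax* among 11% of all genes. Without any one of the 4 control mice at 0 h, 0 to 5 genes were called in all, and without the 24, 48 or 72 h pool 9, 7 and 91.

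In LKO livers no member was called, nor was any gene (0% of 12812, 1763 at an unadjusted p-value under 0.05, 2 members among them). DESeq2 called 385 genes there and no member. The log2 changes were 2.75 for *Cdkn1a* (SE 1.22, adjusted p = 0.354), 1.22 for *Phlda3* (SE 0.47, adjusted p = 0.298), 0.47 for *Btg2* and 0.47 for *Mdm2*, with a median of 0.11 over the 10 genes and 0.04 over all genes. All 10 overlapped between pools and 0 h mice, where 5.46% of all genes did not. Without the 12 h pool the median of the 10 was −0.06, and the values were 1.85 for *Cdkn1a*, −0.30 for *Btg2* and 0.10 for *Mdm2*. Without LKO replicate 1 at 0 h, the log2 change of *Cdkn1a* was 4.39 (adjusted p = 0.314) and that of *Btg2* was 1.18 (adjusted p = 0.512). Neutrophil markers summed to 2.50 to 8.56 CPM in the LKO mice at 0 h and to 17.4, 30.4, 9.62, 8.42 and 2.49 CPM in the pools. Macrophage markers summed to 140.4 to 339 CPM at 0 h, exceeded at 72 h alone (589 CPM). Proliferation markers summed to 7.03 to 12.5 CPM at 0 h and to 2.23, 4.56, 104, 204 and 19.4 CPM in the pools. Stellate sums were 54.1 to 112 CPM at 0 h, exceeded at 72 and 96 h (252 and 149 CPM). Endothelial sums were 219 to 257 CPM at 0 h. Their pools had 220, 157, 181, 160 and 197 CPM, below the 0 h mice from 24 h on. Cholangiocyte sums were 39.7 to 67.2 CPM at 0 h, exceeded at 48 h (87.2 CPM). At 12 and 96 h they were below that range (37.0 and 21.6 CPM). Hepatocyte sums were 47040 to 84354 CPM at 0 h, exceeded from 48 h on. The part of these markers in the LKO values was not tested.

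At single time points, pools were set against the mean log2 level of the 4 mice of their genotype at 0 h. At least 1.5-fold higher levels were reached in control pools by 7, 6, 7, 6 and 3 of the 10 genes at 12, 24, 48, 72 and 96 h. The matching shares of all genes were 27.4%, 23.9%, 24.2%, 24.5% and 16.4%. In LKO pools 5, 4, 2, 2 and 1 of the 10 were as high, against 20.8%, 20.5%, 17%, 17.4% and 10.5% of all genes. *Cdkn1a* and *Phlda3* made up the 2 at 48 h and at 72 h. Against the mean CPM at 0 h, a baseline tried after seeing the data, the LKO counts were 5, 3, 2, 1 and 0, without *Btg2* at 24 h, *Cdkn1a* at 72 h and *Bbc3* at 96 h, and the control counts were 7, 5, 6, 6 and 2. With LKO replicate 1 left out of the mean log2 level, also tried then, the LKO counts were 5, 4, 2, 4 and 1. At least 1.5-fold below 0 h were 1, 2, 1, 2 and 5 of the 10 in control pools, against 25.1%, 20.7%, 19.2%, 19.5% and 13.3% of all genes. They were *Ccng1* at 12 h, *Bbc3* at 24 h, *Sesn2* from 24 h on, *Trp53inp1* at 72 and 96 h, and *Cdkn1a*, *Mdm2* and *Zmat3* at 96 h. In LKO pools 1, 3, 2, 1 and 4 were as low, against 21.6%, 18.7%, 13.7%, 9.51% and 7.35% of all genes. These were *Ccng1* at 12 h, *Trp53inp1* at 24 h, *Bbc3* at 24 and 48 h, *Sesn2* from 24 h on, and *Cdkn1a*, *Zmat3* and *Btg2* at 96 h.

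**Figure D4:**
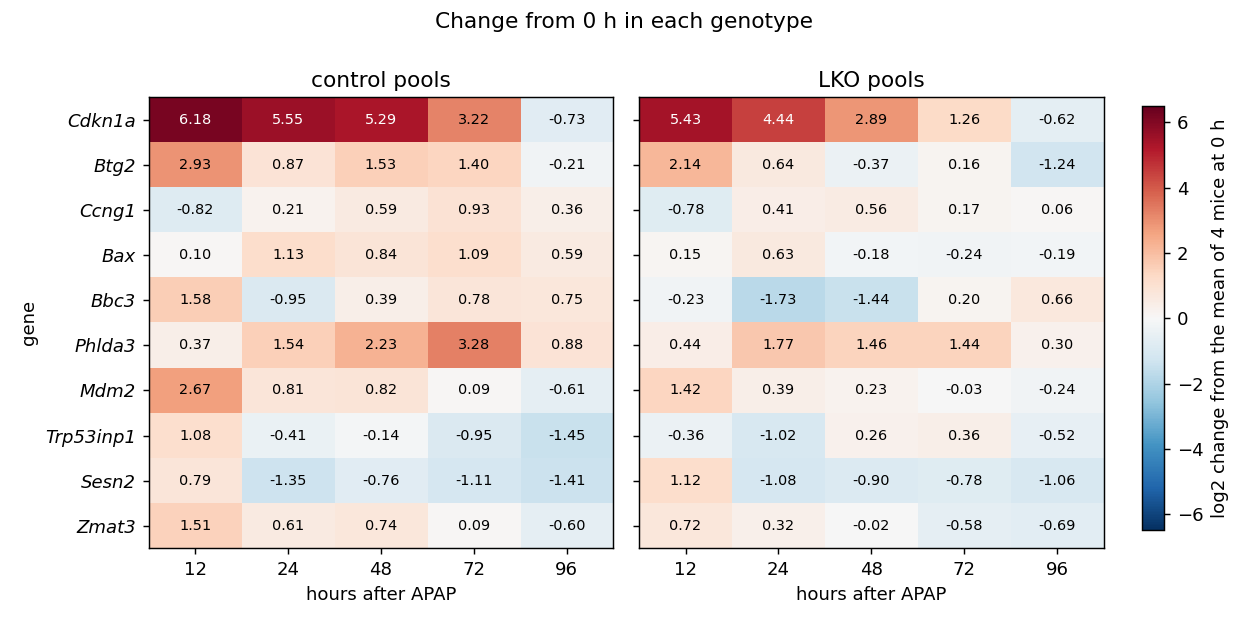
Log2 change of each pool from the mean log2 level of the 4 mice of its genotype at 0 h, with genes in rows and hours after APAP in columns, for control (left) and LKO (right). *Cdkn1a* is above 0 from 12 to 72 h in both panels, with 5.29 in control and 2.89 in LKO at 48 h.

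The genes fell into early and late members by the time of their highest control pool. The 12 h pool was the highest for 7 genes, *Cdkn1a*, *Mdm2*, *Trp53inp1*, *Bbc3*, *Sesn2*, *Zmat3* and *Btg2*, and for 32.2% of all genes. *Bax* was highest at 24 h (11.7% of all genes) and *Ccng1* and *Phlda3* at 72 h (20.5%). For *Bax* the 24 h and 72 h pools were close, with 47.5 and 46.1 CPM. In LKO livers 5 genes, all among the 7 early ones, had their highest pool at 12 h, against 31.1% of all genes. Of the other early genes *Trp53inp1* was highest at 72 h and *Bbc3* at 96 h. *Phlda3* was highest at 24 h in LKO.

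Relative to length, the order of the genes differed before and after APAP. In control mice at 0 h, *Trp53inp1* led with 23.3 CPM per kb of exon, followed by *Bax* (13.8 CPM per kb) and *Btg2* (12.7 CPM per kb). *Cdkn1a* had 2.16 CPM per kb, above *Zmat3* (0.870 CPM per kb) and *Phlda3* (0.764 CPM per kb). In its highest control pool *Cdkn1a* reached 107 CPM per kb, and *Btg2* reached 95.7, *Trp53inp1* 48.4 and *Mdm2* 43.1 CPM per kb. The highest LKO pools had 57.7 CPM per kb for *Cdkn1a* and 34.1 CPM per kb for *Btg2*.

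Whether the response to APAP differed between genotypes was tested as the difference between the LKO effect in the pools and that at 0 h. No gene was called (0% of 13328, 1285 at an unadjusted p-value under 0.05), and DESeq2 called 39 genes, no member among them. Values were below 0 in 7 of the 9 members, with a median of −0.47 against −0.01 for all genes. *Btg2* (−1.29, SE 0.51, adjusted p = 0.474) and *Bax* (−0.73, SE 0.29, adjusted p = 0.474) had an unadjusted p-value under 0.05, and *Cdkn1a*, given without a test, had −1.94 (SE 1.13). Without LKO replicate 1 at 0 h the value of *Btg2* was −0.58 (adjusted p = 0.564) and that of *Cdkn1a* was −0.32.

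Before APAP, the members did not separate LKO from control mice. Of the 12426 genes tested none was called (0%, 352 at an unadjusted p-value under 0.05, no member among them), and DESeq2 called 3. All 10 members overlapped between the groups, where 1.83% of all genes did not. *Btg2* had 36.0, 36.5, 40.0 and 26.6 CPM in control mice and 55.2, 15.3, 12.2 and 19.1 CPM in LKO mice. LKO replicate 1 was above all controls for *Btg2*, *Cdkn1a*, *Sesn2*, *Bbc3* and *Bax*, and the other 3 LKO mice were below all controls for *Btg2*. Without LKO replicate 1 all 10 members had a log2 difference below 0, with a median of −0.28 in place of −0.14, and none was called. *Btg2* was then at −1.15 (SE 0.20, adjusted p = 0.666), and *Trp53inp1* at −0.65 (SE 0.19, adjusted p = 0.915).

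*Cdkn1a* was also the most variable member at 0 h. Its coefficient of variation was 78.3% and 92.7% in AAV8-TBG-Null control and HKO mice, and 85.8% and 139% in control and LKO mice, whereas that of *Mdm2* was 2.59% to 19.9% in the same groups. Group means of *Cdkn1a* were 7.69 ± 6.60 CPM in control and 10.8 ± 15.0 CPM in LKO mice (SD, n = 4 each).

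In the HKO cohort, deletion in adult hepatocytes was compared with AAV8-TBG-Null at 0 h. No member was called, against 0.96% of the 12397 genes tested. *Cdkn1a* had 17.7, 10.3 and 2.04 CPM in controls and 72.3, 25.2 and 9.00 CPM in HKO mice, and the groups overlapped. The log2 difference was 1.83 (SE 0.77, adjusted p = 0.359), with 0.77 when HKO replicate 1 was left out and 2.54 without AAV8-TBG-Null control replicate 1. *Sesn2* was lower in all 3 HKO mice (9.98, 12.5 and 11.7 CPM) than in all controls (18.3, 15.3 and 16.8 CPM), a log2 difference of −0.56 (SE 0.15, adjusted p = 0.123). *Trp53inp1* (121 to 139 CPM in controls and 146 to 198 CPM in HKO) and *Bax* (11.9 to 13.5 and 13.9 to 20.2 CPM) were higher in all HKO mice, at log2 differences of 0.35 and 0.39 and adjusted p-values of 0.271 and 0.354. With 3 of the 10 genes separated in this way, the share among all genes was 18%. The median of the 10 was 0.02, against 0.01 over all genes. Lymphocyte marker sums were also separated (1.24 to 2.62 CPM in controls and 3.75 to 7.09 CPM in HKO), and those of the other cell types overlapped. Unmapped reads were 8.95% to 12.5% in controls and 5.72% to 7.25% in HKO. The part of these differences in the member values was not tested.

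*Trp53*, which encodes p53, was not called in any comparison. It had 26.8, 17.3, 20.3, 30.3 and 16.9 CPM in control pools and 35.4, 26.1, 24.0, 23.4 and 21.3 CPM in LKO pools, higher in LKO at all time points but 72 h. The shared log2 difference was 0.24 (SE 0.17, adjusted p = 0.488). Of 12 regulators of p53, *Trp53* included, 11 were tested in the pools and none was called, with 8 above 0 and a median of 0.29. Of all genes 51.4% were below 0, with a median of −0.01.

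A further 30 genes commonly listed as p53 targets were described in the same way. In the pools 29 were tested and none was called, with 19 below 0 and a median of −0.16, against 51.4% of all genes and a median of −0.01. At least 1.5-fold lower levels in LKO were seen in time order for 11, 8, 10, 12 and 4 of the 29 (37.9%, 27.6%, 34.5%, 41.4% and 13.8%), against 22.9%, 10.6%, 19%, 15.6% and 12.4% of all genes. At least 1.5-fold higher levels were seen for 3, 1, 1, 3 and 4 of the 29. The share of all genes that were as high was not counted. Over all genes the upper quartile of the log2 difference was 0.43, 0.28, 0.42, 0.36 and 0.35. Percentile 95 was 1.27, 0.79, 1.16, 1.10 and 1.11, and 1.5-fold lay between the quartile and this percentile at each time point. After APAP in control livers 27 were tested and 2 were called as higher, where 4.04% of all genes were called in either direction. They were *Apaf1*, the apoptosome scaffold (log2 change 1.55, SE 0.37, adjusted p = 0.0452), and *Rap2b*, a small GTPase (2.13, SE 0.44, adjusted p = 0.0368). Of 17 alternatives, 9 lost the call of *Apaf1* and 7 that of *Rap2b*, among them for both genes the omission of any one control mouse at 0 h or of the 24, 48 or 72 h pool. *Apaf1* had 6.57, 5.71, 9.20, 9.93 and 2.83 CPM in control pools and 1.93 to 2.71 CPM in the 0 h mice. In LKO livers neither was called (0.74 and 1.17, adjusted p = 0.292 and 0.166). At 0 h none of 24 tested in the HKO cohort and none of 26 in the LKO cohort was called.

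The course of *Cdkn1a* was closest to that of genes outside the p53 lists. By root-mean-square difference in log2 change from 0 h over the 10 pools, the nearest of 12088 genes were *Cxcl2*, a neutrophil-attracting chemokine (0.87), *Tnfrsf12a*, the TWEAK receptor (0.91), *Psat1*, an enzyme of serine synthesis (1.05), *Bmp8b*, a bone morphogenetic protein (1.12), and *Plaur*, the urokinase receptor (1.21). For *Cxcl2* the log2 difference from 0 h was 7.75 in control and 5.23 in LKO at 12 h, and 5.46 and 1.13 at 48 h. The nearest member was *Btg2*, at rank 331 with a distance of 2.96, followed by *Phlda3* at rank 462 and *Mdm2* at rank 648. *Sesn2* was the farthest, at rank 9693. This distance was not scaled for the size of the change, so it does not compare timing alone. At 12 h in control the log2 change from 0 h was 6.18 for *Cdkn1a* and 2.93 for *Btg2*.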

How the data were processed

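Liver RNA from 24 libraries was sequenced. The authors trimmed the reads and used STAR with the mm10 genome. They deposited raw counts of reads per gene, with no normalization, of which the unstranded column was used. Rows of reads without a gene were left out of library sizes (unmapped 2.63% to 20.6%, multimapping 4.69% to 8.06%, no feature 7.29% to 14.7%, ambiguous 1.51% to 2.01%). The members and gene lists were chosen with earlier results of these data known. Counts were fitted with edgeR 4.0.16 (R 4.3.3), with TMM scaling, edgeR's filter on low counts and the quasi-likelihood test, and p-values were adjusted by Benjamini-Hochberg over all genes tested. LKO and control pools were compared in a fit blocked on time point, and pools with 0 h mice within each genotype. These comparisons share mice and pools, so their values stand side by side. Single time points were compared by TMM-scaled CPM. The authors used DESeq2 with the same thresholds, and DESeq2 1.42.0 was an alternative here. The other alternatives were library-size and RLE scaling, other filters, a stranded column, other blocks and leaving out each library. All 10 members were named, with *Trp53*, any called gene of the wider p53 lists and the 5 genes nearest to *Cdkn1a*. The markers *Cd68* and *Tat* and the count of *E2f8* fall outside that rule and were chosen after their values were seen. The fitting steps were tested on simulated data.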

Additional observations from a re-analysis of the deposited data

Results flagged for a closer look

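In the group of 4 LKO mice at 0 h, replicate 1 stood far from the other 3 for a pair of members. *Sesn2* had 17.5 CPM there, against 8.83 to 10.2 CPM in the others, and *Btg2* had 55.2 CPM, against 12.2 to 19.1 CPM. Replicate 1 also had 13.5% unmapped reads, against 4.37%, 7.20% and 5.23% in the others, and the fewest reads on genes of the 4 (13671993). The part of this in its values was not tested. The test was a Dixon gap test over 20 sets of 4 mice (each of the 10 genes in LKO and in control), and chance flags about 1 in 20 such sets.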

How the results depend on the processing

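Over 60 values of a member in a comparison, 965 alternatives were computed and 41 reversed the direction, 31 of them by leaving out one library. The largest value that reversed was 0.50. The cause of the changes was not tested. With DESeq2, 331 genes were called for HKO at 0 h, 3 for LKO at 0 h, 606 (4 members) for LKO pools, 1817 (4 members) for APAP in control, 385 for APAP in LKO and 39 for the difference in response. Without a filter beyond 1 count the calls were 255 for HKO, 337 for LKO pools, 4 for APAP in LKO and 2 for the difference in response, and with at least 10 counts in every library 34 for LKO pools. With library-size scaling they were 42 for LKO pools and 2 for APAP in LKO. Without the time block LKO pools gave 0 genes and 0 members. The stranded column gave 313 genes for APAP in control and 2 for APAP in LKO, and at 96 h 0 members at least 1.5-fold above 0 h in control and 2 in LKO. With the mean CPM as 0 h baseline, LKO had 1 member above 0 h at 72 h and 0 at 96 h, and control had 2 at 96 h, and without LKO replicate 1 in the baseline LKO had 4 at 72 h. The fit of 18 libraries called 1466 genes and 3 members for APAP in control.

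The replicate numbers did not pair the samples (correlations of same-numbered mice from −0.031 to 0.198 in the HKO cohort and from −0.379 to 0.223 in the LKO cohort at 0 h). With the replicate block, 263 genes and 1 member, *Cdkn1a* (log2 difference 1.79, adjusted p = 0.00184), were called for HKO, *Btg2* was at −0.0056 for HKO and *Cdkn1a* at −0.41 for LKO at 0 h. Other reversals were *Mdm2* for HKO at 0.0017 with at least 10 counts and 0.0734 with library-size scaling, which also gave 0.0126 for *Zmat3* in HKO and 0.0367 for *Ccng1* in LKO at 0 h. The stranded column gave −0.0083 for *Bax* and −0.19 for *Zmat3* in APAP in LKO, 0.0591 for *Bbc3* in HKO and −0.10 for *Bax* in LKO at 0 h.

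Leaving out one library or time point gave 54 to 297 calls for HKO (*Bbc3* −0.31 to 0.0421, *Btg2* −0.55 to 0.40, *Ccng1* −0.0466 to 0.26, *Mdm2* −0.0539 to 0.0357, *Phlda3* −0.72 to 0.23, *Zmat3* −0.12 to 0.0108). For LKO at 0 h it gave 0 to 1 (*Bax* −0.15 to 0.15, *Bbc3* −0.10 to 0.69, *Ccng1* −0.19 to 0.0903, *Cdkn1a* −1.13 to 0.97, *Sesn2* −0.12 to 0.25). For LKO pools it gave 9 to 177 genes and 0 to 1 members (*Trp53inp1* −0.63 to 0.0667). For APAP in control it gave 0 to 2001 genes and 0 to 4 members (*Trp53inp1* −0.65 to 0.0867). For APAP in LKO it gave 0 to 236 (*Bax* −0.13 to 0.23, *Bbc3* −0.78 to 0.15, *Btg2* −0.30 to 1.18, *Trp53inp1* −0.38 to 0.0206, *Zmat3* −0.18 to 0.19), and for the difference in response 0 to 2 (*Ccng1* −0.33 to 0.0062, *Trp53inp1* −0.20 to 0.50).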
